A study of Homo sapiens with 3 samples.

Results

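The human HOX genes are 39 protein-coding genes in 4 clusters, HOXA on chromosome 7, HOXB on chromosome 17, HOXC on chromosome 12 and HOXD on chromosome 2. They were chosen by symbol alone from the 20037 protein-coding genes of the RefSeq table for GRCh38.p14, as HOXA, HOXB, HOXC or HOXD followed by digits, which leaves out the readthrough gene HOXA10-HOXA9. No measured value entered that rule, although it was set with earlier results of these data known. Accessible chromatin was mapped by ATAC-seq, in which Tn5 transposase inserts adapters into open DNA, in day 14 neurons of the established human iPSC line KOLF2.1J, driven by the neurogenic factor NGN2. All 3 samples are biological replicates of this single group, with no second genotype, treatment or time, and all come from 1 line. The study sought regulatory elements of MAPT, the tau gene, so the HOX clusters lie outside the locus it was about.

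HOX genes encode homeodomain transcription factors that give cells their position along the head-to-tail axis. Within a cluster the genes lie in the order of the body levels at which they act, and numbered paralogue groups correspond across the clusters. Low-numbered genes act in the hindbrain and neck, middle ones at brachial and thoracic levels, and high-numbered ones in the lumbar and sacral trunk, the limbs and the urogenital tract. Forebrain and midbrain cells keep the clusters silent, with Polycomb complexes covering them, whereas spinal and hindbrain neurons use defined subsets. NGN2 drives neuronal differentiation without itself assigning a body level. Here paralogue groups 1 to 4 are called anterior, 5 to 8 central and 9 to 13 posterior, which gives 12, 11 and 16 genes.

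The authors combined the 3 samples into 1 list of 145092 summit entries in 65234 distinct intervals, called regions below. Of these, 43 lay in the clusters or within 100 kb of them. The list holds no value per sample, so there is no spread between replicates and no test between samples, and every comparison is a description of this list. Each summit has a fold enrichment, the authors' linear ratio over the local background, and a tag count, the number of pooled sequencing tags at the summit, recovered from the ratio and its p-value. Tag counts of regions at their strongest summit ran from 58 to 3783 with a median of 238. Intervals given with tag counts are exact Poisson 95% intervals and those given with shares are Wilson 95% intervals. Both cover counting error only. The list contains only regions that passed the authors' threshold, so a gene without a region is one with none listed, not one shown to be closed. A low tag count cannot tell few open cells from weak opening in all cells. Of the genes that define the labelled cell type, 12 of 14 pan-neuronal genes had a region within 1 kb of an end, against 1 of 6 pluripotency genes and 68.8% of all protein-coding genes, while POU5F1 and NANOG had none. Of 9 glial genes 6 had one (66.7%), which is near the share of all genes, and GFAP and MOG had none.

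Promoter sequences were compared first, because they show what stands beside a HOX start with and without a listed region. RefSeq promoter windows for GRCh38.p14 were matched by gene identifier for 20 of the 39 genes, as 26 distinct windows of 300 bases. In each cluster the window covered by the strongest region is shown, where there is one, and that of the gene without a region within 1 kb of its start that lies farthest from a summit. The 250 bases before the start are printed 5′ to 3′ on the strand of the gene, and capitals mark matches on either strand to the binding words given after the sequences, which may overlap each other. HOXA3 (chr7:27150951-27151200, minus strand) is the inner start covered by the region with the most tags in any cluster, and HOXD13 (chr2:176092471-176092720, plus strand) is also covered. The other windows, HOXA2 (chr7:27102684-27102933, minus strand), HOXB1 (chr17:48531012-48531261, minus strand), HOXC4 (chr12:54016638-54016887, plus strand, shared with HOXC5) and HOXD11 (chr2:176107030-176107279, plus strand), have no region within 1 kb of the start.
HOXA3: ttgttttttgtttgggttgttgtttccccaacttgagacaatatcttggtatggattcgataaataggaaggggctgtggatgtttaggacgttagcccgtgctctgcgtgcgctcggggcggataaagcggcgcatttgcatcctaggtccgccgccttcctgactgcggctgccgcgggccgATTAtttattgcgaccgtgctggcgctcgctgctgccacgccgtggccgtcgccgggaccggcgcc
HOXD13: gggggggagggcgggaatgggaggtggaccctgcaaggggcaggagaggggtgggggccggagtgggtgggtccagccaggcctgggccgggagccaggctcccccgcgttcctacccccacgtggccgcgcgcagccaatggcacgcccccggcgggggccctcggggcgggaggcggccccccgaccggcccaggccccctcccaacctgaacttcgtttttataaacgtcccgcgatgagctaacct
HOXA2: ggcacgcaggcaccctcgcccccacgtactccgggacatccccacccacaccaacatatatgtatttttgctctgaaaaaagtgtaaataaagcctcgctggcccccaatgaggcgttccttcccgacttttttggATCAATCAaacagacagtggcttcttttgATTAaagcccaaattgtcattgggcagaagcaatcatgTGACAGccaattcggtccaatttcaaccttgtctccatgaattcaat
HOXB1: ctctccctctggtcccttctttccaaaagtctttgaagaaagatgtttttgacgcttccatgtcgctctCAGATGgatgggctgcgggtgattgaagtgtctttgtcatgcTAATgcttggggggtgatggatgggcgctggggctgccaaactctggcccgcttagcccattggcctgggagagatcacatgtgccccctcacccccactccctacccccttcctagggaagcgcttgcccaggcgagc
HOXC4: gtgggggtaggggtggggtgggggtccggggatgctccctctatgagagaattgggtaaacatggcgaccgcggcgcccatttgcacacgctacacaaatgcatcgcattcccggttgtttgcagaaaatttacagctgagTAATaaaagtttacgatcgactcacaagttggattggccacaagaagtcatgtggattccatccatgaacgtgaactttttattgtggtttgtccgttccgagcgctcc
HOXD11: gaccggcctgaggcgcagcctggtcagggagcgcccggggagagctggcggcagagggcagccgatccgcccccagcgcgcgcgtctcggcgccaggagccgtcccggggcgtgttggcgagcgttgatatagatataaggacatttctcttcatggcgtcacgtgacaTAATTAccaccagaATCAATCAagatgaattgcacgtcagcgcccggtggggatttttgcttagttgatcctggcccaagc

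The homeodomain core word TAAT was in 20 of the 26 HOX windows (76.9%), against 42.8% of 22049 windows of protein-coding genes. The longer word TGATTNAT, which PBX and HOX proteins can bind together, was in 2 windows, those of HOXA2 and HOXD11 (7.69%, against 2.06%). The MEIS word TGACAG was in 4 windows (15.4%, against 14.9%) and the neurogenin E-box CAGATG in 2 (7.69%, against 12.2%). No HOX window held AGGTCA, a word of retinoic acid receptors, which 11.9% of all windows held, or the CTCF core motif, which 0.0408% held. These matches are letters in a short window and not shown to be bound. A region overlapped 5 of the 26 HOX windows (19.2%), against 66.3% of all windows. The HOX windows had a median of 22.5 CpG dinucleotides, against 21 over all windows. The 9 windows with a region within 1 kb of the start had a median of 27, against 15 in the other 17. HOXA3 contributes 7 of the 26 windows, so the windows are not independent.

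Among the 39 HOX genes, 11 had a region within 1 kb of an end (28.2%, interval 16.5 to 43.8%). Among all 20037 protein-coding genes the share was 68.8%, and among the 12260 whose length lies within the HOX range of 1.68 to 45.6 kb it was 66.1%. The 11 genes included HOXA3, HOXA4, HOXA5, HOXA11, HOXA13, HOXB2, HOXD1, HOXD8, HOXD9 and HOXD13. A further 7 genes held a region only inside the gene, namely HOXA10, HOXB3, HOXB6, HOXC4, HOXC5, HOXC6 and HOXD3, so that 18 genes (46.2%, interval 31.6 to 61.4%) held one in all, against 79.0% of protein-coding genes and 74.1% of those in the HOX length range. The other 21 genes had no region in the gene or within 1 kb of it. At a listed transcription start, 9 of the 20 matched genes had a region within 1 kb (45%, interval 25.8 to 65.8%), against 72.4% of protein-coding genes with a listed start.

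**Figure D1:**
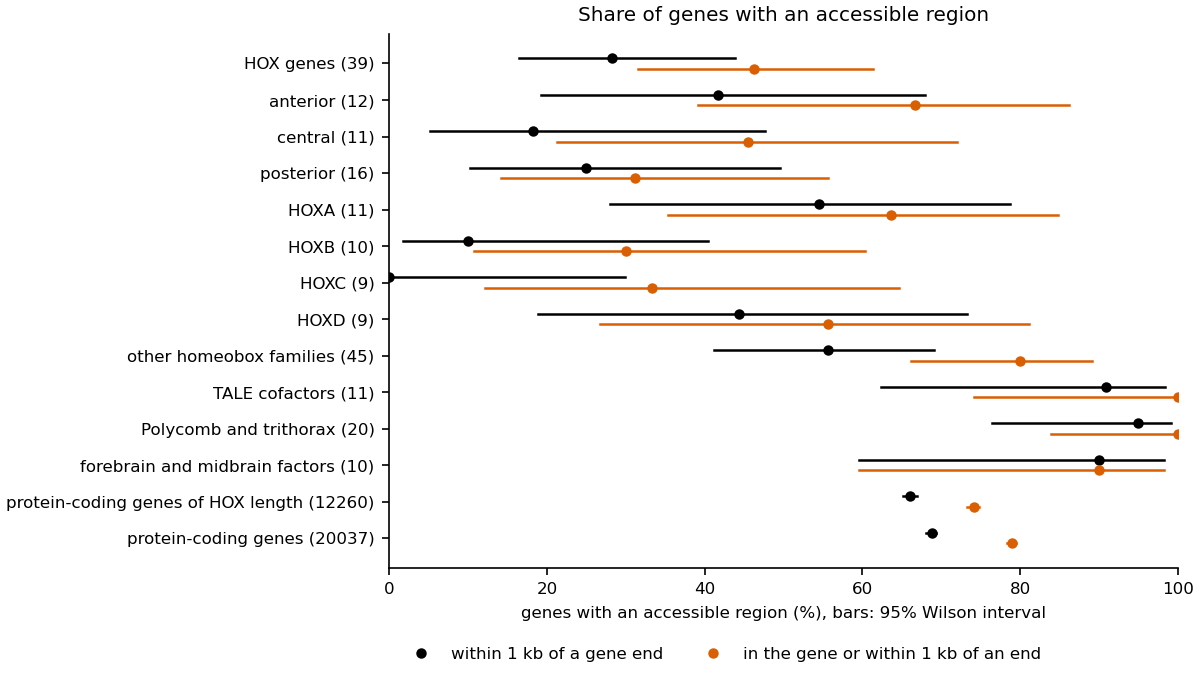
Share of genes (%) with an accessible region within 1 kb of a gene end (black) or in the gene or within 1 kb of an end (orange), with the number of genes in brackets and bars for the Wilson 95% interval. HOX genes stand at 28.2% and 46.2%, and all protein-coding genes at 68.8% and 79.0%.

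The HOX regions were also weak. At the 11 accessible ends the strongest region had between 108 and 352 tags, with a median of 165, and fold enrichments had a median of 4.11 and a maximum of 6.48. Among the 13779 protein-coding genes with an accessible end the median was 954 tags and a fold enrichment of 10.5. Only 15.7% of those genes had 352 tags or fewer. None of the 27 regions whose strongest summit lay within a cluster reached 824 tags, the median of all regions at protein-coding gene ends. The choice of strength matters to the count of genes. Keeping only regions above the median fold enrichment of the whole list left 1 of 39 HOX genes with an accessible end, against 58.1% of protein-coding genes. Keeping those above the median tag count, a setting added after the data were seen, left 4 of 39, against 62.9%.

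**Figure D2:**
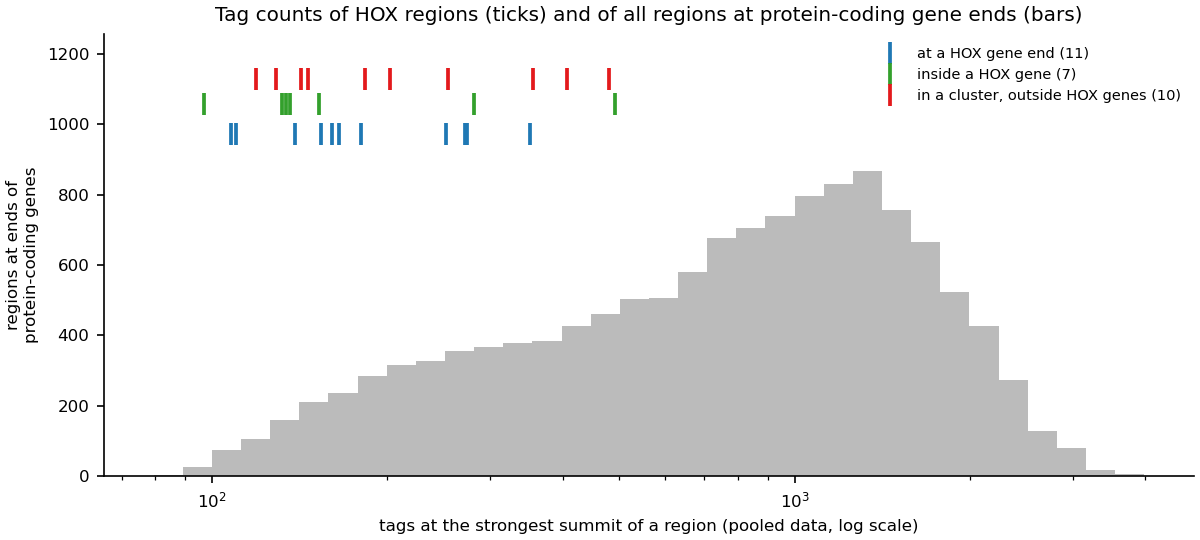
Tags at the strongest summit (log axis) for regions at ends of protein-coding genes (grey bars, number of regions) and for HOX regions (ticks, height without meaning): 11 at a HOX gene end, 7 inside a HOX gene and 10 elsewhere in a cluster. All HOX ticks lie between 97 and 492 tags, below the median of 824 for the grey bars.

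Anterior genes had an accessible end somewhat more often than posterior ones, but the interval of the difference includes 0. The counts were 5 of 12 anterior genes (41.7%), 2 of 11 central genes (18.2%) and 4 of 16 posterior genes (25%). The anterior share exceeded the posterior one by 16.7 percentage points, with a Newcombe 95% interval of -16.5 to 46.9 that treats genes as independent although neighbours share sequence. Within 1 kb of a listed start the shares were equal, at 4 of 8 anterior and 4 of 8 posterior genes. Without any region in the gene or within 1 kb were 4 anterior, 6 central and 11 posterior genes, and most of the posterior ones lie in HOXC and HOXD. Where an end was accessible, the tag counts ran the other way. The anterior values included 108 tags for HOXB2, 110 for HOXA3, 161 for HOXA4 and 165 for HOXD1. The posterior values were 154 tags for HOXA11, 272 for HOXD13, 274 for HOXA13 and 352 for HOXD9. By tags, all but HOXA11 among the posterior ends were above every anterior end, and their intervals did not overlap those of the anterior ends. This comparison covers gene ends only. It leaves out the region of 492 tags at an inner start of anterior HOXA3, which was above every posterior end. By fold enrichment this order did not hold throughout. HOXD13 had 4.11 and HOXA11 3.13, below HOXA4 at 5.36 and HOXD1 at 4.59, while HOXA13 had 5.5 and HOXD9 6.48. Above the median fold enrichment the difference in share turned to -6.25 points, and above the median tag count to -18.8 points, as 0 anterior ends remained under both, against 1 and 3 posterior ones, so no order between the classes is given.

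**Figure D3:**
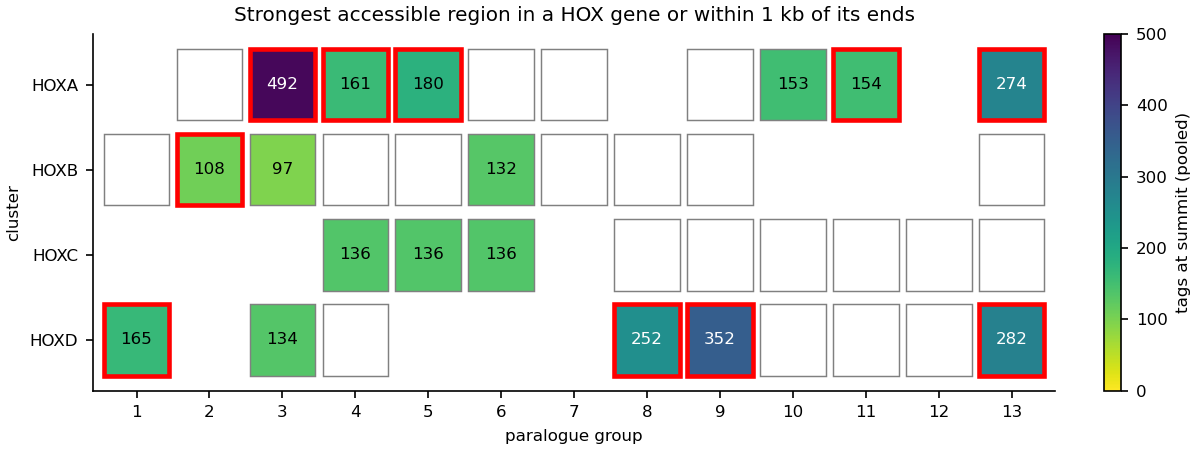
HOX genes by cluster (rows) and paralogue group (columns), coloured and numbered by the tags at the strongest summit in the gene or within 1 kb of its ends. Red frames mark genes with a region within 1 kb of an end, white boxes are the 21 genes without any region, and empty places are paralogues absent from the cluster or not reported here; the strongest regions of HOXA3 (492) and HOXD13 (282) lie inside the gene.

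The clusters differed in how many members were accessible. In HOXA a region lay at an end of 6 of 11 genes (54.5%, interval 28.0 to 78.7%) and in HOXD of 4 of 9 (44.4%, interval 18.9 to 73.3%). The counts were 1 of 10 in HOXB (10%, interval 1.79 to 40.4%) and 0 of 9 in HOXC (interval 0 to 29.9%). The share of all protein-coding genes, 68.8%, lies within the intervals of HOXA and HOXD and above those of HOXB and HOXC. The 0 of HOXC depends on the window. Under a 2 kb window or an overlap of 1 bp, 1 shared region counts at an end of HOXC4, HOXC5 and HOXC6. With 100 kb on either side, the clusters held 12 regions for HOXA, 13 for HOXB, 4 for HOXC and 14 for HOXD, or 3.91, 3.25, 1.26 and 4.61 per 100 kb. Within the clusters alone, from the first to the last HOX gene, there were 9 regions in the 107 kb of HOXA, 10 in the 103 kb of HOXD, 7 in HOXB, which is longer, and 2 in the 117 kb of HOXC when any summit is counted. Per 100 kb the clusters alone thus held 8.4 regions in HOXA, 9.67 in HOXD, 3.5 in HOXB and 1.71 in HOXC. Autosomal windows of 100 kb had a median of 2, and the 785 windows overlapping at least 5 protein-coding genes had a median of 5 with quartiles at 3 and 7. Without their flanks, HOXA and HOXD lay above the upper quartile of these gene-dense windows, HOXB between the lower quartile and the median, and HOXC below the lower quartile. With 100 kb on either side, HOXA, HOXB and HOXD all lay between the lower quartile and the median, so the standing of HOXA and HOXD depends on the margin. The covered share of the clusters alone was 9.72% in HOXD, 8.78% in HOXA, 2.19% in HOXB and 1.54% in HOXC.

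**Figure D4:**
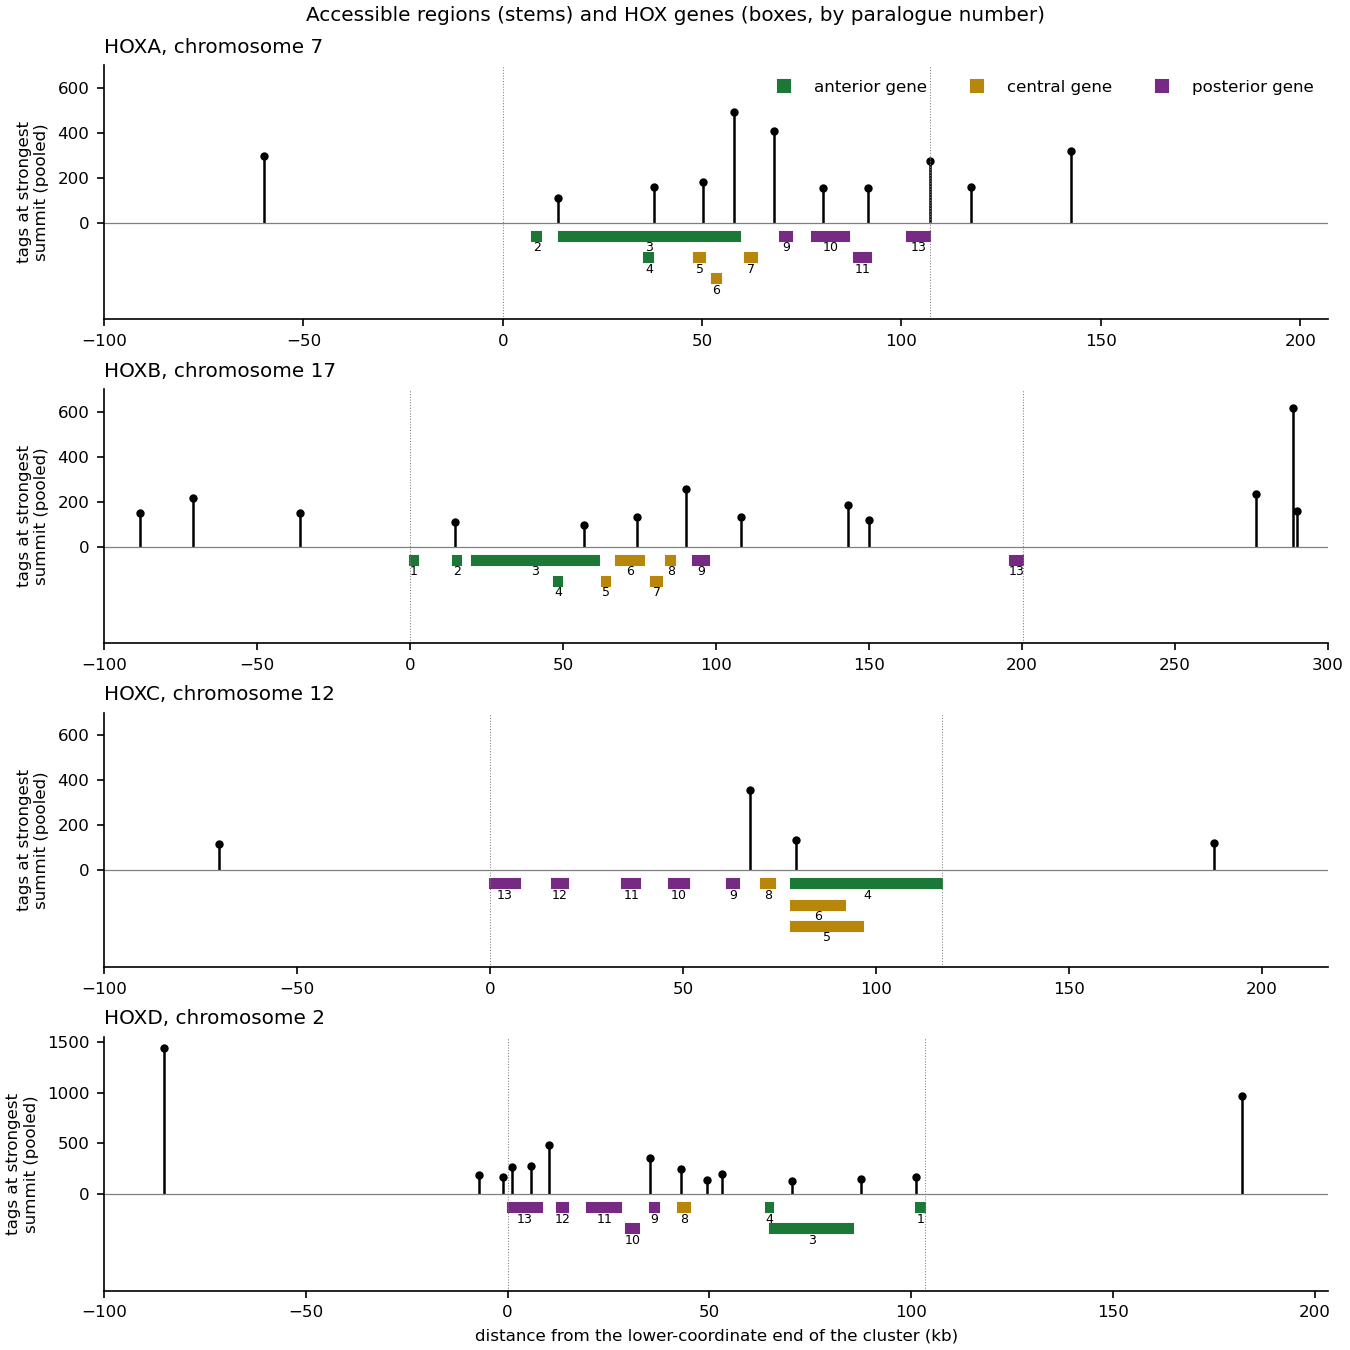
Accessible regions (stems, tags at the strongest summit) along the 4 clusters and 100 kb on either side, by distance in kb from the lower-coordinate end, with HOX genes as boxes numbered by paralogue group, leaving out what is not reported here. Dotted lines mark the cluster ends, and the HOXD axis is longer because the flanking regions reach 1439 and 967 tags.

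In HOXA the regions at the ends of anterior genes were weak by tag count. HOXA2, needed for the second pharyngeal arch and the hindbrain, had no region, the nearest summit lying 3.72 kb from its ends. HOXA3, a gene of the third arch and its derivatives, had 110 tags (interval 90 to 133) at its lower-coordinate end in chr7:27106335-27106967. This value put the end region of HOXA3 at percentile 5.67 of all regions by tag count. HOXA4 had 161 tags (interval 137 to 188) in chr7:27130804-27131445, with the summit 213 bp before its listed start. HOXA5, which acts in the neck and thorax and in phrenic motor neurons, had 180 tags (interval 155 to 208) in chr7:27142646-27143542. HOXA6 and HOXA7 had none, with the nearest summits 2.04 and 2.42 kb from their ends.

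The region with the most tags in any cluster lay in HOXA. It spans chr7:27150631-27151545 and had 492 tags (interval 449 to 537) and a fold enrichment of 9.49, at percentiles 76.8 and 82.1 of all regions. Its summit is 41 bp before an inner start of the long HOXA3 transcripts, the start whose sequence is given above, and it also lies within HOXA-AS3 and between HOXA6 and HOXA7. RefSeq draws HOXA3 over 45.6 kb because of such upstream starts, across HOXA4, HOXA5 and HOXA6, so the region cannot be assigned to 1 gene.

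Of the posterior HOXA genes, HOXA13 had the most tags. HOXA9, known from blood progenitors, had none within 1 kb, and the nearest summit was 1.32 kb away, in the region between it and HOXA7 described below. HOXA10 and HOXA11, which pattern the reproductive tract and limb, had 153 tags (interval 130 to 179) in chr7:27172954-27174066 and 154 tags (interval 131 to 180) in chr7:27184361-27185107. These regions do not differ beyond counting error, and the HOXA11 summit is shared with HOXA11-AS. HOXA13, which acts in the distal limb and hindgut, had 274 tags (interval 243 to 308) in chr7:27198966-27200733, with the summit 162 bp before its start. The summit is also within 1 kb of HOTTIP, the noncoding gene beyond the end of the cluster. Its tag count lies above those of the other accessible HOXA ends, with no overlap of intervals.

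HOXD had the highest values at gene ends. HOXD9, a gene of the lumbar spinal cord and limb, had 352 tags (interval 316 to 391) and a fold enrichment of 6.48 in chr2:176122198-176123528, with the summit 4 bp from the gene end. It is the sole HOX gene that kept a region at an end under all 7 alternative settings. HOXD8 had 252 tags (interval 222 to 285) in chr2:176129895-176130885. HOXD13, the gene of the digits, held a region of 272 tags (interval 241 to 306) in chr2:176087978-176088628 near its lower end and a second of 282 tags (interval 250 to 317) in chr2:176092337-176093580 over its listed start, which do not differ beyond counting error. By tags the latter stood at percentile 58.1 of all regions but by fold enrichment at 21.8, as its local background was 70.6 tags against a floor of 29.2 in the list. HOXD10, HOXD11 and HOXD12, which lie between these genes, had no region within 1 kb, and 24.7 kb from 176097743 to 176122473 were without a summit. HOXD10 acts in lumbar motor neurons.

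The anterior HOXD genes with a region had fewer tags. HOXD1 had 165 tags (interval 141 to 192) in chr2:176187693-176189953, the widest region of any cluster at 2261 bp, with the summit 68 bp before the start and shared with HAGLR, the antisense gene of the cluster. HOXD3 had 134 tags (interval 112 to 159) in chr2:176157577-176158109, with the summit 549 bp after its listed start. HOXD4, a hindbrain and cervical gene, had none, the nearest summit being 4.47 kb away. The tag intervals of HOXD8, HOXD9 and HOXD13 all lay above that of HOXD1. By fold enrichment HOXD1 had 4.59 and HOXD3 3.85. The HOXD13 regions had 4.11 and 3.95, HOXD8 4.97 and HOXD9 6.48, so HOXD1 was above HOXD13 on that measure.

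HOXB had few regions at its genes, although its 3.5 regions per 100 kb lay above the median of 2 for autosomal windows. HOXB2, a hindbrain gene, was the sole member with a region at an end, of 108 tags (interval 89 to 130) in chr17:48542995-48543814. HOXB3 and HOXB6 held inner regions of 97 tags (interval 79 to 118, chr17:48585428-48585653) and 132 tags (interval 110 to 157, chr17:48602470-48602875). The HOXB3 region, at percentile 1.55 of all regions, is the weakest of any cluster by tag count. HOXB1, which specifies the facial motor neurons of the hindbrain, had no summit within 12.1 kb of its ends. Neither did HOXB4, HOXB5, HOXB7, HOXB8 and HOXB9 have one within 1 kb. HOXB13, the prostate gene that lies apart from the rest, was 46.2 kb from the nearest summit. Between HOXB9 and HOXB13 there were 3 regions, of 129, 183 and 119 tags, and 2 of these lay in the noncoding gene LINC02086.

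HOXC had the fewest. A single region of 136 tags (interval 114 to 161), in chr12:54017623-54018541, lay 1093 bp inside the shared first end of HOXC4, HOXC5 and HOXC6, which RefSeq starts at the same base, so these 3 genes count 1 region. HOXC6 is a gene of brachial motor neurons. HOXC8 and HOXC9, which set brachial and thoracic motor neuron identity, had none within 1 kb. From the outer end of HOXC13 the first 67.3 kb of the cluster had no summit, and this stretch holds HOXC9, HOXC10, HOXC11, HOXC12 and HOXC13 as well as HOTAIR. HOXC13, a gene of hair and nail, was the member farthest from a summit, at 59.6 kb.

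Some of the strongest regions lay between HOX genes. The 10 such regions within the clusters had a median of 192 tags and ranged from 119 to 480, against a median of 165 at the 11 HOX ends. The strongest of them in HOXA, chr7:27160520-27161462 with 407 tags (interval 368 to 449), lies between HOXA7 and HOXA9. That of HOXB, chr17:48618429-48619519 with 254 tags (interval 224 to 287), lies between HOXB8 and HOXB9. In HOXC it is chr12:54005688-54006576, with 356 tags (interval 320 to 395), between HOXC8 and HOXC9. In 3 of 4 clusters, therefore, the strongest region outside HOX genes lay at the step from central to posterior genes. The junction was singled out after the values were seen and has no test. HOXD had its strongest, chr2:176097262-176098111 with 480 tags (interval 438 to 525), between HOXD13 and HOXD12. In HOXB, HOXC and HOXD this region had more tags than any region in or at a HOX gene, with no overlap of intervals, although HOXB and HOXC have few to compare. In HOXA it came after the region at the inner HOXA3 start, and those intervals meet at 449 tags.

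The 100 kb on either side held 16 regions, among them that of HOXA13. Beyond HOXD the genes LNPK and MTX2, which border the cluster, had regions of 1439 tags (interval 1366 to 1515, chr2:176001249-176002874) and 967 tags (interval 907 to 1030, chr2:176269094-176270297) at an end. These are the 2 flanking regions above the median of gene ends, and each was above every region inside HOXD. EVX2, the homeobox gene next to HOXD13, had 188 tags (interval 162 to 217, chr2:176079425-176081098). EVX1, its counterpart beside HOXA, had no region. Beside HOXA the strongest by fold enrichment were chr7:27032801-27033373, with 298 tags (interval 265 to 334), and chr7:27235241-27236183, with 320 tags (interval 286 to 357), and neither lies in an annotated gene or within 1 kb of one. Beside HOXB the highest were 616 tags (interval 568 to 667, chr17:48816807-48817835) at an end of TTLL6, 232 tags inside TTLL6 (chr17:48804717-48805503) and 214 tags (chr17:48457093-48457777). HOXC had 1 region on either side, of 116 and 121 tags.

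Long noncoding genes of the clusters had a region at an end about as often as such genes elsewhere. Of 18 listed, 6 had one within 1 kb (33.3%), against 30.5% of 18303 long noncoding genes in the RefSeq table. The 6 included HOTTIP, HOXA11-AS, HOXB-AS1, HOXD-AS2 and HAGLR. HOTAIR, the transcript of the posterior HOXC cluster, had none. Of the 6 listed microRNA genes MIR10A, MIR10B, MIR196A1, MIR196A2, MIR196B and MIR615, 0 had one, while 15.8% of 1913 microRNA genes had one. Allowing 3 counts for a count of 0, which is not a Wilson limit, leaves room for at most 50.0%. The list is not complete. MIR7704, which is not in it, has the HOXD1 summit of 165 tags in it or within 1 kb, so the 0 holds for the listed genes only. The strongest summit at 6 of the 11 HOX ends was also within or near an annotated gene other than a HOX gene. The summits at the HOXA4 and HOXA5 ends also lie within HOXA3. Tags at such places cannot be divided between the genes.

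The counts for genes that work with HOX proteins are to be read against the 68.8% of all protein-coding genes with a region at an end. Of 11 cofactors of the TALE class, which bind DNA together with HOX proteins, 10 had one (90.9%, interval 62.3 to 98.4%), with a median of 892 tags. Among them MEIS1 had 1075 tags and MEIS2 676, and TGIF1 held its regions inside the gene. Of 20 Polycomb and trithorax genes, which silence and activate the clusters, 19 had one (95%, interval 76.4 to 99.1%), with a median of 1143 tags, EZH2 at 1939, SUZ12 at 1770 and KMT2A at 2198. PCGF2 was the exception at the ends and held 3 regions in or near the gene. Upstream regulators gave 9 of 14 (64.3%, interval 38.8 to 83.7%), an interval that includes the share of all genes, with 1105 tags at GBX2. CDX1 and CDX4, of the caudal genes that switch on trunk HOX genes, had no region, and CDX2 had 176 tags. EGR2, the hindbrain regulator also known as KROX20, had none at its outer ends and 1399 tags inside.

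Forebrain and midbrain factors had a region at an end in 9 of 10 genes (interval 59.6 to 98.2%, against 68.8% of all protein-coding genes), including SIX3 at 580 tags and EN2 at 1591, while OTX2 had none. Factors of spinal and hindbrain motor and sensory neurons gave 5 of 9 (interval 26.7 to 81.1%), with 890 tags at ISL1, 880 at POU4F1 and 690 at MNX1, and none at PHOX2A, LHX3 or DRGX. Both intervals include the share of all protein-coding genes. Of the ParaHox genes, relatives of the HOX clusters, GSX1 and PDX1 had one and GSX2 none. Other homeobox families, DLX, IRX, LHX, NKX, PAX and that of SIX3, gave 25 of 45 genes (55.6%, interval 41.2 to 69.1%) with a median of 580 tags. Among them were 5 of 6 DLX, 3 of 8 LHX, 3 of 10 NKX and 4 of 9 PAX genes. Of these 45 genes, 36 (80.0%) held a region in the gene or within 1 kb, close to the 79.0% of all protein-coding genes. Weak ends were not particular to HOX genes. The accessible PAX ends had a median of 179 tags and a fold enrichment of 3.37, against 165 and 4.11 at HOX ends. In the other families the median ran from 477 tags (LHX) to 865 (NKX). The families are listed for scale, without a test between them and the HOX genes.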

How the data were processed

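ATAC-seq of 3 replicates was available as 1 narrowPeak list, the optimal set by irreproducible discovery rate per the labels. The build hg38 is named in the submitters' processing notes, and the aligner, peak caller and filters are not given in the sources used here. The authors deposited, per summit, a score (540 to 1000, scaling not stated), a fold enrichment as a linear ratio, and −log10 p. A further −log10 q was not used. Depth per sample is unknown.

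Summit tag counts t were solved from the deposited ratio (t + 1)/(b + 1), with background b, and the Poisson upper tail. All 145092 came within 0.0108 of a whole number, and on 20000 simulated summits 100% were recovered. Entries sharing both bounds made up 1 region, with the values of its entry of highest −log10 p. A region counted at a gene if any of its summits lay in the window, gene ends ± 1 kb. Positions count from 1. Gene ends, starts and promoter sequences came from RefSeq (GRCh38.p14).

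The members and lists were chosen with earlier results of these data known. Named were the HOX genes, the regions in a cluster, the 3 flanking regions of highest fold enrichment per cluster, and genes of the lists. Of the listed symbols, PRRXL1 was matched as DRGX, TDGF1 as CRIPTO and KIAA1715 as LNPK. Some genes covered by this rule are counted but not reported here. No test was run, since the list has no value per sample. Alternatives were 2 kb and 500 bp windows, an overlap of 1 bp, the strongest summit only, a score of at least 830, regions above the median fold enrichment or tag count, margins of 0 and 50 kb, all entries, other class limits, other strength measures and outer gene ends as starts. Python 3.11.15, numpy 2.4.6, scipy 1.17.1, pandas 2.3.3 and matplotlib 3.10.9 were used.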

Additional observations from a re-analysis of the deposited data

How the results depend on the processing

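Of 57 recomputed values for 9 summary results, 33 kept their direction and stayed within the limit set for them, 22 moved and 2 reversed. Depth per sample is unknown, and the weakest summit of the list had 58 tags, where counting error alone is 13.1%. Strength decided most changes. Above the median fold enrichment, 1 HOX gene had a region at an end and 2 held one in the gene or near it, and the clusters with 100 kb on either side held 4 (HOXA), 5 (HOXB), 1 (HOXC) and 4 (HOXD) regions. Above the median tag count, chosen after seeing the data, the numbers were 4 and 5 genes, and 5, 2, 1 and 7 regions. The anterior minus posterior difference reversed to -6.25 points above the median fold enrichment and to -18.8 above the median tag count, where fewer regions are admitted. Counting entries gave 33, 24, 8 and 41 for HOXA, HOXB, HOXC and HOXD. A margin of 50 kb gave 8 for HOXB and 2 for HOXC, and one of 0 kb gave 7 and 2, as less sequence is admitted. The median percentile of the strongest region per HOX gene, 23.1 by fold enrichment, was 12.7 by the mean over its entries, and the cause was not tested. Taking the outer gene end as the start gave 6 genes in place of 9. By gene, 23 HOX genes had no region at an end under any setting, 15 changed and 1 always had one.

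No paired analysis was possible because only 1 group exists, whose 3 samples the authors merged. Leaving out a replicate was not run, as the list used here holds none alone.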
